A study of Arachis hypogaea with 15 samples.

Results

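The YABBY genes are a small family of plant transcription factors, and 10 of them are described here in leaf tissues of cultivated peanut (Arachis hypogaea). The deposited gene table lists 59878 gene entries. Of these, 15 carry YABBY in their product name, at 15 different positions, and 10 of them were chosen by their mean level over all 15 libraries, the highest being kept. Such a choice takes in a gene that is high in 1 tissue alone. It used no difference between groups. The lowest gene kept, arahy.20NM7L.1, averaged 4.29 FPKM, and the highest gene left out, arahy.K25LU1.1, averaged 3.03 FPKM. FPKM scales fragments by transcript length and by sequencing depth, so levels of different genes can be set side by side.

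RNA sequencing was done on the apex of a mutant with pentafoliate leaf defects and on 4 wild-type tissues, which were the apex, the petiole, and the terminal and lateral leaflets. Each of these 5 groups held 3 libraries, which the design text calls biological replicates. All plants were 40 days old and shared the same growth chamber conditions. The labels name no gene, allele or parent line for the mutant, so plant background and harvest time cannot be told apart from the mutation.

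YABBY proteins bind DNA through a zinc finger and a domain related to high mobility group proteins. In Arabidopsis the vegetative members (FILAMENTOUS FLOWER, also called YABBY 1, with YABBY 2, YABBY 3 and YABBY 5) are expressed on the lower, abaxial side of young leaves. They promote the outgrowth of a flat blade and repress meristem genes in the leaf. They act there with KANADI and auxin response factors of the abaxial side, opposite the HD-ZIP III factors of the upper side, and recruit the co-repressors LEUNIG and SEUSS. The other Arabidopsis members, INNER NO OUTER and CRABS CLAW, act in ovules, and in carpels and nectaries.

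The family label held up against a second annotation in the file. A separate transcription factor column assigned 19 genes to the YABBY family, and all 15 genes with the product name were among them. The other 4 were 2 CRABS CLAW genes, a high mobility group B protein 1 gene and a lysosomal Pro-X carboxypeptidase gene. Product names come from matches to named proteins of other plants, so a number in a name need not denote the same gene as in Arabidopsis. In Arabidopsis the name YABBY 4 belongs to INNER NO OUTER, and whether any peanut gene named YABBY 4 is its ortholog was not tested. By name, the 10 genes are 2 YABBY 4, 2 YABBY 1, 3 YABBY 5-like and 3 YABBY 2 genes. They lie on chromosomes 1, 2, 8, 11, 12, 13 and 18 of the Tifrunner genome, first assembly, and coordinates below are on that build. Peanut is an allotetraploid, in which chromosomes 1 to 10 form the A subgenome and 11 to 20 the B subgenome. Near-identical copies can exchange reads, so levels of single copies are less certain than their sums.

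The libraries held an estimated 16.7 to 17.8 M fragments each. The tissue labels were checked against marker genes. Class I KNOX homeobox genes mark the meristem. A list for them summed to 373.4 to 374.3 FPKM in the mutant apex and 253.8 to 267.1 FPKM in the wild-type apex, against 40.7 to 46.9 FPKM in the 9 other libraries. The list also catches 2 knotted-1-like 13 genes, which were lower in the wild-type apex than in the leaflets (log2 change -1.07 and -1.09). Of its 20 genes tested, 17 were higher in the wild-type apex, against 35.3% of all genes. The stem cell genes named CLAVATA 3 and WUSCHEL were at most 0.54 FPKM in every library, the apices included. Photosynthetic blade genes (small subunits of Rubisco and chlorophyll a-b binding proteins) summed to 9195 to 9204 FPKM in the petiole, against 25739 to 27967 FPKM in the terminal leaflet and 21620 to 22211 FPKM in the lateral leaflet. Genes of the secondary-wall cellulose synthase subunits 4, 7 and 8 were only slightly higher in sum in the petiole, at 36.8 to 38.0 FPKM, than in the leaflets, at 32.2 to 33.6 FPKM.

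YABBY expression differed in amount and in make-up between the tissues. The 10 genes summed to 259.4 ± 3.72 FPKM in the mutant apex and 308.7 ± 9.39 FPKM in the wild-type apex (mean ± SD, n = 3 libraries, as for all group means below). They summed to 59.7 ± 1.99 FPKM in the petiole, 144.7 ± 1.44 FPKM in the terminal leaflet and 141.4 ± 2.23 FPKM in the lateral leaflet. The 2 YABBY 4 genes held most of the sum in the apices, 64.4% in the mutant and 54.8% in wild type. In the leaflets the 3 YABBY 2 genes were the largest share, 45.2% in the terminal and 43.9% in the lateral leaflet, followed by the 3 YABBY 5-like genes at 29.6% and 30.5%. In the petiole the YABBY 2 genes made up 81.7% of the sum and the 2 YABBY 1 genes 0.695%. Each library is a bulk sample, in which fewer cells of a type and less RNA per cell cannot be told apart.

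**Figure D1:**
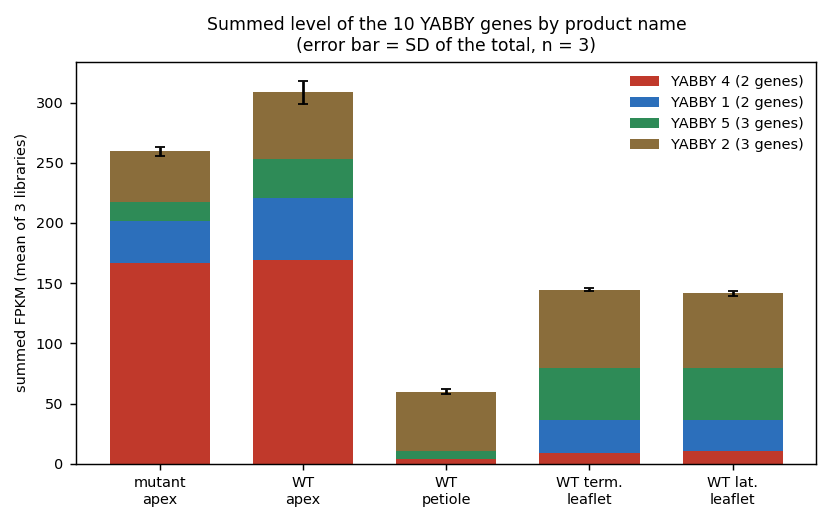
Stacked bars give the summed FPKM of the 10 YABBY genes in each of the 5 groups, split by product name (mean of 3 libraries; error bars are the SD of the total). The bars reach 259.4 FPKM in the mutant apex and 308.7 FPKM in the wild-type apex, mostly YABBY 4, and 59.7 FPKM in the petiole, mostly YABBY 2.

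Setting the mutant apex against the wild-type apex asks how the family stood in the tissue that initiates leaves when leaflet number was altered. A gene was called changed at an adjusted p under 0.05 in a limma model of log2(FPKM + 1) over all 15 libraries, adjusted over 39031 genes with at least 1 FPKM in 3 or more libraries. All 10 YABBY genes passed that filter. In the mutant apex 7 of the 10 were lower and 0 were higher. Across all genes tested, 11.9% were lower and 23.7% higher. The median log2 change was -0.46 over the 10 YABBY genes and 0.07 over all genes. The lower genes were those named YABBY 1 and YABBY 5-like and 2 of the 3 YABBY 2 genes, while the 2 YABBY 4 genes were not called.

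In the tissue comparisons the background share of called genes was far larger. Between the wild-type apex and the mean of the leaflets, 7 of the 10 YABBY genes were higher in the apex and 3 lower, where 35.3% and 44.3% of all genes were called. Between the petiole and the leaflets, 8 were lower in the petiole and 0 higher, against 44.1% and 30.8% of all genes. Between the wild-type apex and the petiole, 8 were higher in the apex and 0 lower, against 27.5% and 27.2%. Between the terminal and the lateral leaflet, 1 was lower in the terminal leaflet and 0 were higher, against 7.45% and 5.63%. The medians over the 10 genes were 0.36 for apex over leaflets, -1.62 for petiole over leaflets, 2.19 for apex over petiole and 0.02 for terminal over lateral. Over all genes they were -0.09, -0.11, 0.01 and -0.03 in the same order. The 3 comparisons among apex, petiole and leaflets share libraries and are not independent of each other.

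**Figure D2:**
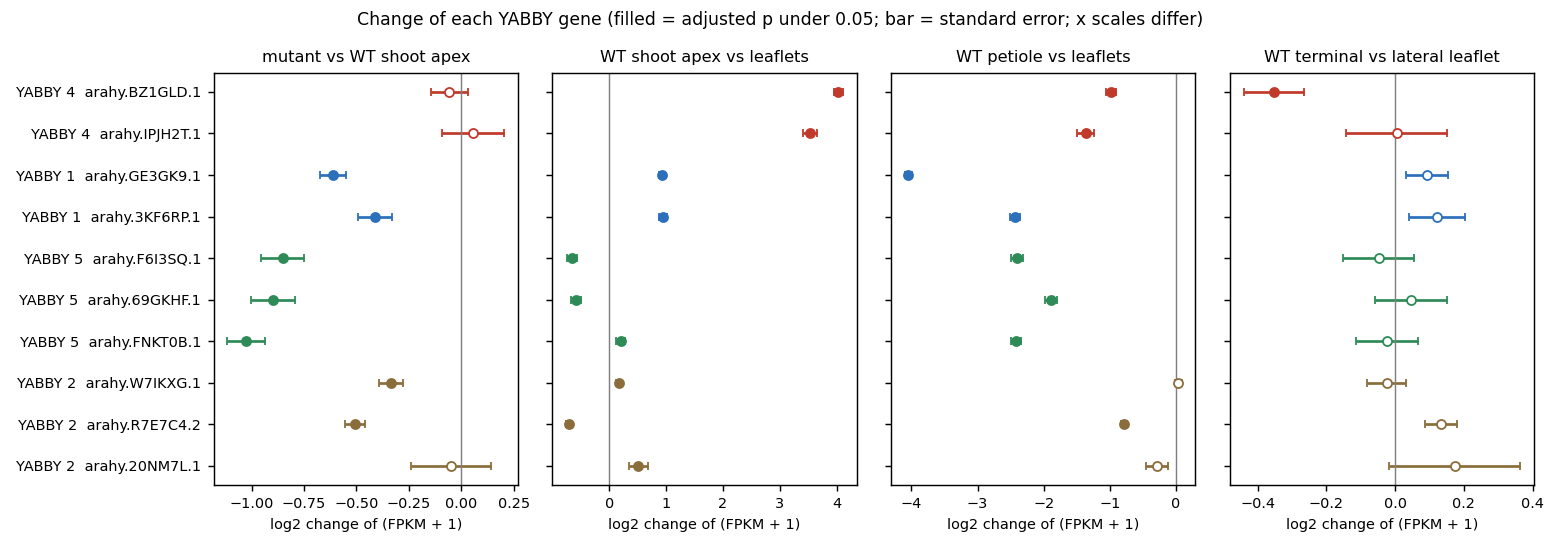
Points give the log2 change of FPKM + 1 of each YABBY gene in 4 comparisons, with the standard error as bars. Filled points passed an adjusted p under 0.05, and the scales of the x axes differ. In the mutant 7 points are filled, all to the left of 0, and the YABBY 4 genes stand furthest to the right in the comparison of wild-type apex with leaflets.

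The YABBY 4 genes were the most highly expressed members in the apices. The B-subgenome copy arahy.BZ1GLD.1 (chromosome 11, 53319148 to 53323272, minus strand) stood at 109.7, 111.2 and 103.2 FPKM in the 3 mutant apex libraries and 108.8, 109.1 and 119.8 FPKM in the wild-type apex. The same gene was at 2.33, 2.38 and 2.88 FPKM in the petiole, 5.43, 5.26 and 4.80 FPKM in the terminal leaflet and 7.93, 7.06 and 5.75 FPKM in the lateral leaflet. All 6 apex libraries thus lay far above the other 9, and the mutant and wild-type apices overlapped. The A-subgenome copy arahy.IPJH2T.1 (chromosome 1, 44333140 to 44337229, minus strand) showed the same order at a lower level. It stood at 55.5, 57.6 and 64.0 FPKM in the mutant apex and 59.6, 53.6 and 56.9 FPKM in the wild-type apex. Outside the apices it was at 0.46 to 1.28 FPKM in the petiole, 3.21 to 4.49 FPKM in the terminal leaflet and 3.48 to 4.54 FPKM in the lateral leaflet.

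The mean of arahy.BZ1GLD.1 was 18.6 times as high in the wild-type apex as in the leaflets (log2 change 4.03, SE 0.0764, limma adjusted p = 8.77e-16). For arahy.IPJH2T.1 the ratio was 14.1 (log2 change 3.53, SE 0.128, limma adjusted p = 2.49e-12). Both genes were lower still in the petiole, where the log2 change against the leaflets was -0.98 for arahy.BZ1GLD.1 and -1.36 for arahy.IPJH2T.1. Between the mutant and wild-type apex the log2 changes were -0.06 (SE 0.0882, limma adjusted p = 0.65) and 0.06 (SE 0.148, limma adjusted p = 0.806), neither of which passed. The sum of the 2 copies was 167.0 ± 1.80 FPKM in the mutant apex and 169.3 ± 7.05 FPKM in the wild-type apex, a log2 change of -0.02 (SE 0.0493, limma adjusted p = 0.809). In the terminal leaflet arahy.BZ1GLD.1 averaged 5.16 ± 0.326 FPKM, against 6.91 ± 1.10 FPKM in the lateral leaflet, with no overlap between them (log2 change -0.35, limma adjusted p = 0.0158). That call was lost without terminal leaflet replicate 3 (adjusted p = 0.0669), lateral leaflet replicate 1 (0.0727) or lateral leaflet replicate 2 (0.0557).

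The YABBY 1 genes, named after the FILAMENTOUS FLOWER gene of Arabidopsis, were present in the apices and the blades and nearly absent from the petiole. The B copy arahy.GE3GK9.1 (chromosome 12, 110253426 to 110257602, minus strand) stood at 26.5, 25.7 and 29.2 FPKM in the mutant apex and 42.6, 40.9 and 42.2 FPKM in the wild-type apex. Its values were 0.46, 0.37 and 0.27 FPKM in the petiole, 21.3, 22.2 and 23.4 FPKM in the terminal leaflet and 19.9, 21.6 and 21.1 FPKM in the lateral leaflet. The 3 mutant libraries lay between those of the wild-type apex and those of the leaflets, with no overlap on either side. The petiole values correspond to an estimated 6.4 to 10.9 fragments per library, against 453.5 to 532.6 in the leaflets. The A copy arahy.3KF6RP.1 (chromosome 2, 94416228 to 94420390, minus strand) stood at 6.17, 7.82 and 7.54 FPKM in the mutant apex and 9.81, 9.52 and 10.2 FPKM in the wild-type apex. In the leaflets it was at 4.19 to 4.95 FPKM, and in the petiole it was listed at 0 in 2 libraries and at 0.15 FPKM in the third.

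In the mutant apex arahy.GE3GK9.1 averaged 27.1 ± 1.85 FPKM, against 41.9 ± 0.881 FPKM in the wild-type apex, a ratio of 0.647 (log2 change -0.61, SE 0.0608, limma adjusted p = 2.73e-06). The ratio for arahy.3KF6RP.1 was 0.729 (log2 change -0.41, SE 0.0815, limma adjusted p = 0.00123). That call was lost with a pseudocount of 0.1 in place of 1, where the standard error was larger and the change was not smaller (log2 change -0.46, SE 0.256, limma adjusted p = 0.189). The fit shares 1 estimate of spread over all 15 libraries, including the petiole libraries of this gene at 0 to 0.15 FPKM. The wild-type apex exceeded the leaflets 1.94 times for arahy.GE3GK9.1 (limma adjusted p = 3.29e-10) and 2.11 times for arahy.3KF6RP.1 (limma adjusted p = 9.33e-09). The petiole held 1.70% of the leaflet mean of arahy.GE3GK9.1 (log2 change -4.04, limma adjusted p = 3.11e-17).

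The YABBY 5-like genes had their lowest levels in the petiole and were the members with the largest log2 changes in the mutant apex. Of these, arahy.F6I3SQ.1 (chromosome 11, 145069652 to 145072854, minus strand) stood at 5.88, 7.06 and 4.73 FPKM in the mutant apex and 11.97, 10.27 and 11.78 FPKM in the wild-type apex. Its homeologous copy arahy.69GKHF.1 (chromosome 1, 99060068 to 99063252, plus strand) stood at 4.11, 4.29 and 5.72 FPKM in the mutant apex and 10.4, 9.29 and 8.99 FPKM in the wild-type apex. The third gene, arahy.FNKT0B.1 (chromosome 18, 32214351 to 32217542, minus strand), has no YABBY gene paired with it by name on chromosome 8. It stood at 5.16, 5.21 and 4.93 FPKM in the mutant apex and 12.95, 10.37 and 11.05 FPKM in the wild-type apex. In each of the 3 genes all mutant libraries lay below all wild-type apex libraries.

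The mutant mean was 51.9% of the wild-type apex mean for arahy.F6I3SQ.1 (log2 change -0.85, SE 0.102, limma adjusted p = 1.78e-05). It was 49.2% for arahy.69GKHF.1 (log2 change -0.90, SE 0.104, limma adjusted p = 1.33e-05) and 44.5% for arahy.FNKT0B.1 (log2 change -1.02, SE 0.0901, limma adjusted p = 7.62e-07). As a sum, the 3 genes held 6.05% of the family's FPKM in the mutant apex and 10.5% in the wild-type apex. Whether these genes fell more than the other members was not tested.

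Between the tissues of the wild type the 3 YABBY 5-like genes did not share one order. The homeologous copies were highest in the leaflets, where arahy.F6I3SQ.1 ranged from 16.9 to 19.7 FPKM and arahy.69GKHF.1 from 13.3 to 17.0 FPKM over 6 libraries. In the wild-type apex they were lower than in the leaflets, by log2 changes of -0.65 (limma adjusted p = 7.57e-06) and -0.58 (limma adjusted p = 3.1e-05). By contrast, arahy.FNKT0B.1 averaged 11.5 ± 1.34 FPKM in the wild-type apex and 9.80 ± 0.463 FPKM over the 6 leaflet libraries, with overlapping libraries (log2 change 0.20, limma adjusted p = 0.0279). That call was lost without wild-type apex replicate 1 (adjusted p = 0.202), without terminal leaflet replicate 3 (0.056) and with a pseudocount of 0.1 (0.09). In the petiole arahy.F6I3SQ.1 was at 2.64, 2.78 and 2.57 FPKM, arahy.69GKHF.1 at 3.37, 3.03 and 3.45 FPKM and arahy.FNKT0B.1 at 0.76, 1.07 and 1.25 FPKM. All 9 values were below every leaflet value of the same gene, with log2 changes of -2.40, -1.88 and -2.42 (limma adjusted p = 3.09e-12, 6.74e-11 and 6.85e-13).

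The YABBY 2 genes were the members least reduced in the petiole. The gene arahy.W7IKXG.1 (chromosome 18, 7229701 to 7237881, minus strand) differed little across the wild-type tissues. It stood at 21.5, 24.9 and 21.9 FPKM in the mutant apex, against 30.4, 29.3 and 27.2 FPKM in the wild-type apex. In the petiole it was at 24.9 to 27.4 FPKM, in the terminal leaflet at 25.1 to 26.0 FPKM and in the lateral leaflet at 25.2 to 26.6 FPKM. The mutant apex was its lowest group, and no neighbouring pair among the 4 wild-type groups passed the test in the order of its levels. Of these pairs, the wild-type apex over the petiole (log2 change 0.13, limma adjusted p = 0.0646) did pass after quantile normalization (adjusted p = 0.0327), after TPM scaling (0.0112), without mutant apex replicate 2 (0.0307), without wild-type apex replicate 3 (0.0257) and with the homeologous copies summed (log2 change 0.24, adjusted p = 7.13e-05). The wild-type apex stood slightly above the leaflets (log2 change 0.17, limma adjusted p = 0.00633). The mutant was at 78.6% of the wild-type apex (log2 change -0.34, SE 0.0565, limma adjusted p = 3.6e-04).

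A further YABBY 2 gene, arahy.R7E7C4.2 (chromosome 13, 16682408 to 16692297, minus strand), was highest in the leaflets. It stood at 14.97, 14.38 and 13.21 FPKM in the mutant apex and 21.2, 20.1 and 20.5 FPKM in the wild-type apex. Its values were 20.5, 19.4 and 18.7 FPKM in the petiole, 35.5, 36.0 and 36.6 FPKM in the terminal leaflet and 32.8, 32.1 and 33.5 FPKM in the lateral leaflet. The mutant was at 69.0% of the wild-type apex, with no overlap (log2 change -0.51, SE 0.0468, limma adjusted p = 1.24e-06). Both the wild-type apex (log2 change -0.71, limma adjusted p = 3.35e-10) and the petiole (log2 change -0.79, limma adjusted p = 1.55e-10) were below the leaflets. The terminal leaflet lay above the lateral leaflet in all libraries, by a log2 change of 0.13 that did not pass (limma adjusted p = 0.0802) and did pass without mutant apex replicate 3 (0.0491).

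The last member, arahy.20NM7L.1 (chromosome 8, 31319245 to 31327471, minus strand), is the A-subgenome counterpart of arahy.W7IKXG.1 and stood between 1.96 and 7.27 FPKM in all libraries. It averaged 5.42 ± 0.771 FPKM in the mutant apex and 5.73 ± 1.48 FPKM in the wild-type apex, a log2 change of -0.05 with a standard error of 0.191 (limma adjusted p = 0.866). It was higher in the wild-type apex than in the leaflets, at 3.69 ± 0.702 FPKM over 6 libraries, by a log2 change of 0.51 (limma adjusted p = 0.0113). Without wild-type apex replicate 3 that change was 0.35 (adjusted p = 0.0872). The wild-type apex also exceeded the petiole, at 2.89 ± 0.829 FPKM, with no overlap (log2 change 0.79, limma adjusted p = 0.00283). None of the neighbours in the order of its group levels differed by the limma test, so the order between neighbours is unsettled at this spread.

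**Figure D3:**
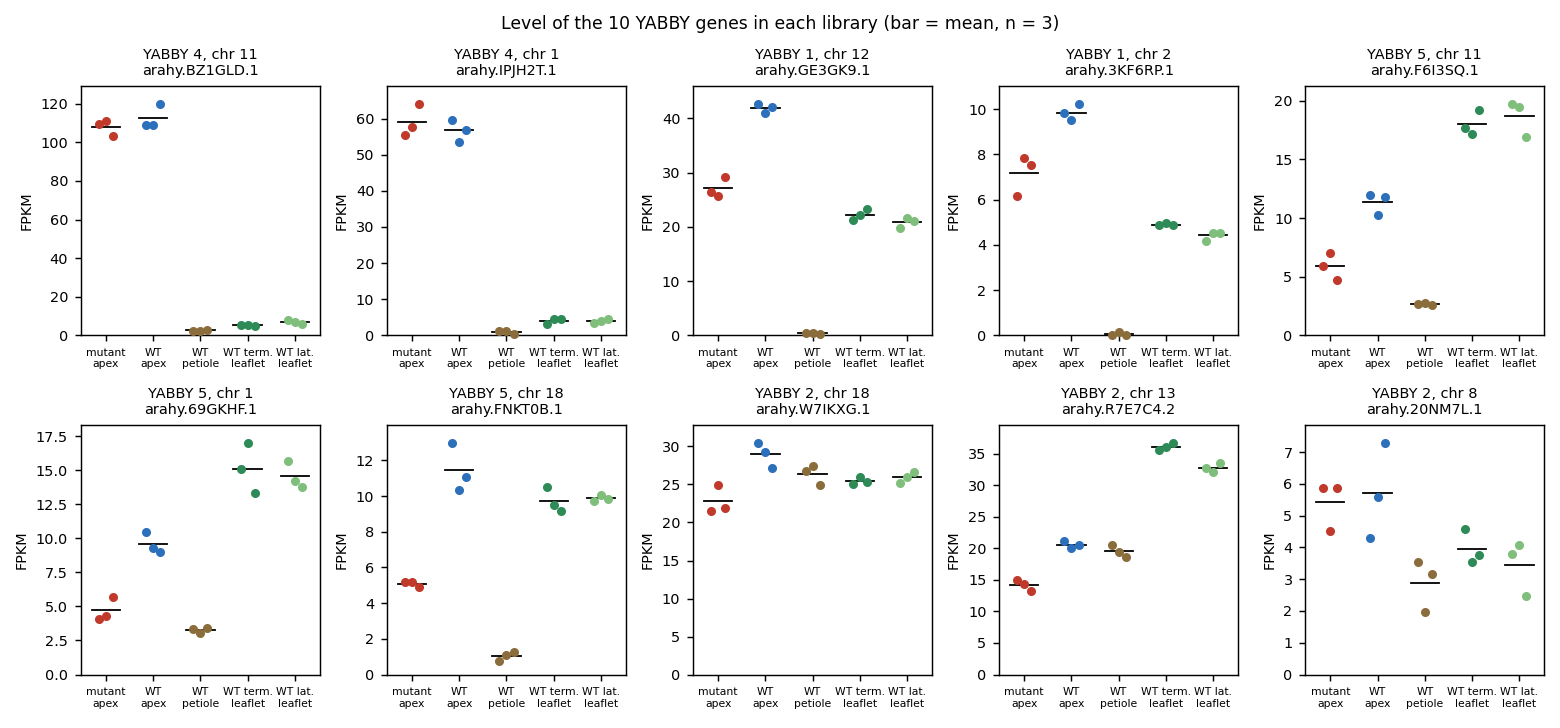
Each panel plots 1 YABBY gene, with 1 point per library and a bar at the mean of 3 libraries, in FPKM from a baseline of 0. The YABBY 4 genes are high in both apices alone, the YABBY 1 genes are near 0 in the petiole, and the YABBY 5-like genes are lower in the mutant than in the wild-type apex.

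Homeologous copies were compared within 4 pairs of the same product name on matching chromosomes of the A and B subgenomes. In 3 of the 4 pairs the B copy was the higher one in the mean of every group, and the YABBY 5-like pair was the exception. The A copy held 20.9% of the YABBY 1 pair in the mutant apex, 19.0% in the wild-type apex, 18.0% in the terminal leaflet and 17.5% in the lateral leaflet. For YABBY 4 the A share was 35.3% in the mutant apex, 33.5% in the wild-type apex, 43.6% in the terminal leaflet and 36.9% in the lateral leaflet. The YABBY 5-like pair was closest to equal, with an A share of 43.8% to 45.8% in the apices and leaflets and 55.2% in the petiole. For the YABBY 2 pair of chromosomes 8 and 18 the A share was 19.3% in the mutant apex, 16.5% in the wild-type apex, 9.88% in the petiole, 13.4% in the terminal leaflet and 11.7% in the lateral leaflet.

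The shares were tested between the 6 apex libraries, mutant and wild type together, and the 6 leaflet libraries. The log2 ratio of the A to the B copy was -2.01 ± 0.155 in the apices and -2.21 ± 0.0528 in the leaflets for YABBY 1 (mean ± SD). This difference of 0.20 gave an exact 2-sided permutation p of 0.00216, the smallest the design allows, and 0.00866 adjusted over the 4 pairs. On FPKM + 1 the difference was 0.11 and did not pass (exact permutation, adjusted p = 0.141). With the wild-type apex alone it was 0.12, at the smallest exact permutation p that 3 against 6 libraries allow, 0.0238, which adjusts to 0.0952 over the 4 pairs. The YABBY 2 pair differed by 0.60 (exact permutation, adjusted p = 0.0476) and by 0.45 with the wild-type apex alone (exact permutation, adjusted p = 0.254). The YABBY 4 pair differed by -0.35 (exact permutation, adjusted p = 0.118), and by -0.44 on FPKM + 1, which passed (exact permutation, adjusted p = 0.0476). With the wild-type apex alone the YABBY 4 pair differed by -0.41 (exact permutation, adjusted p = 0.254). The YABBY 5-like pair differed by 0.03 (exact permutation, adjusted p = 0.864). Summed over the 2 copies, the mutant apex was lower than the wild-type apex for YABBY 1 (log2 change -0.58, limma adjusted p = 8.27e-06), YABBY 2 (-0.29, limma adjusted p = 3.4e-05) and YABBY 5-like (-0.92, limma adjusted p = 3.49e-08).

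**Figure D4:**
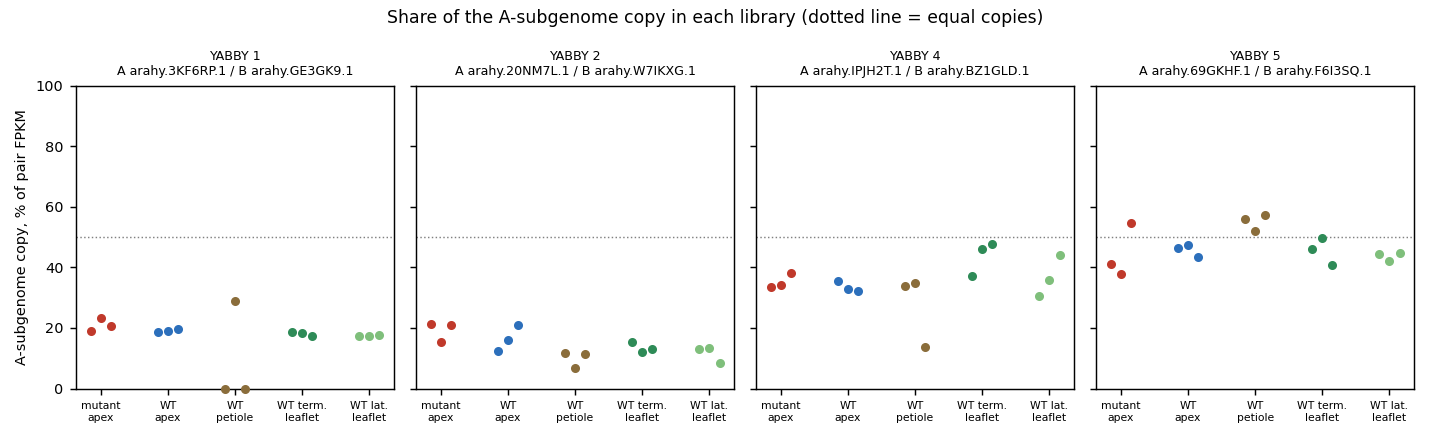
Points give, in each library, the percent of a homeologous pair's summed FPKM that came from the A-subgenome copy, in 4 panels for the 4 pairs. The dotted line marks equal copies, and the YABBY 1 points of the petiole rest on almost no fragments and scatter between 0% and 28.8%.

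Across the 15 libraries, which fall into 5 groups and share tissue and depth, copies of a pair followed each other closely in log2(FPKM + 1). Pearson's r was 0.988 for the YABBY 4 pair, 0.990 for the YABBY 1 pair and 0.962 for the YABBY 5-like pair, and it was -0.24 for the YABBY 2 pair of chromosomes 8 and 18. The other YABBY 5-like gene, arahy.FNKT0B.1, correlated at 0.911 with arahy.F6I3SQ.1 and at 0.922 with the YABBY 1 gene arahy.GE3GK9.1. The gene arahy.BZ1GLD.1 and the YABBY 2 gene arahy.R7E7C4.2, high in apices and in leaflets, correlated at -0.61. These coefficients mostly describe the differences between the 5 groups.

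Among 16209 named genes averaging 5 FPKM or more, the 5 closest to the mean log2 level of the 10 YABBY genes were found by Pearson's r over the 15 libraries. They were an isochorismate synthase 2-like gene (arahy.9TI54L.7, r = 0.992), 2 UDP-galactose/UDP-glucose transporter 2 genes (arahy.VS7SL0.1, 0.984, and arahy.HM81ZM.1, 0.981), a cellulose synthase A subunit 3 gene (arahy.RYYU2D.3, 0.979) and a gene of structural maintenance of chromosomes protein 6B (arahy.2YP1UN.1, 0.976). The isochorismate synthase gene averaged 6.29 ± 0.203 FPKM in the mutant apex and 9.04 ± 1.11 FPKM in the wild-type apex. It averaged 1.23 ± 0.025 FPKM in the petiole, 5.04 ± 0.409 FPKM in the terminal leaflet and 5.12 ± 0.340 FPKM in the lateral leaflet.

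The other genes of the leaf polarity network did not all move with the YABBY genes in the mutant apex, where 23.7% of all genes were higher and 11.9% lower. Of the abaxial KANADI genes 0 were higher and 1 lower of 8 tested in the mutant (median log2 change -0.05), and the lower one, a KAN2 gene on chromosome 15 (from 1463403 to 1469094), stood at 12.1 ± 0.530 FPKM in the mutant apex and 14.1 ± 0.227 FPKM in the wild-type apex. Of the genes for the abaxial auxin response factors 3 and 4, 6 were higher and 1 lower of 12 (median 0.46). Among these auxin response factor 3 (arahy.L6KZS8.1) averaged 16.6 ± 0.199 FPKM in the mutant apex and 10.2 ± 0.423 FPKM in the wild-type apex (limma adjusted p = 5.7e-07). The adaxial HD-ZIP III factors specify the upper leaf side, and 8 of their 11 tested genes were higher and 0 lower (median 0.22; 6 higher after quantile normalization). The REVOLUTA gene arahy.50TKKU.1 averaged 13.2 ± 0.206 FPKM in the mutant apex and 9.41 ± 0.275 FPKM in the wild-type apex (limma adjusted p = 4.33e-05). The blade regulators WOX1 and WOX3 had 0 genes higher and 1 lower of 4 (2 lower after quantile normalization). For the co-repressors LEUNIG and SEUSS 4 of 13 genes were higher and 0 lower, against 23.7% and 11.9% of all genes. After quantile normalization 4 were higher and 2 lower. The background for all counts given after quantile normalization was 6889 genes higher and 6112 lower of 39031.

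Meristem, blade and flower genes were set beside the same background of 23.7% higher and 11.9% lower. Class I KNOX genes, which YABBY proteins repress in Arabidopsis leaves, had 11 of 20 genes higher in the mutant and 0 lower (median 0.41). After quantile normalization 10 were higher and 1 lower, where 6889 of all 39031 genes were higher and 6112 lower. The KNOX list also catches knotted-1-like 13 products. CIN-type TCP factors act in the arrest of cell division as blades mature, and their genes were lower in all 6 tested (median -0.73). Of the blade marker genes 18 of 32 were higher in the mutant and 2 lower, and they summed to 6131 to 6347 FPKM in the mutant apex and 5520 to 5864 FPKM in the wild-type apex. The gene of smallest p was 1 of the 2 lower ones, a chlorophyll a-b binding protein 6A gene (arahy.BTM1YE.1). It averaged 0.320 ± 0.306 FPKM in the mutant apex and 78.2 ± 1.81 FPKM in the wild-type apex (log2 change -5.93). Flower marker genes summed to 141.8 to 146.7 FPKM in the mutant apex and 143.6 to 153.7 FPKM in the wild-type apex, with 5 higher and 4 lower of 23, in a list that also holds APETALA 2-like products. The part of these marker differences in the YABBY differences was not tested.

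**Figure D5:**
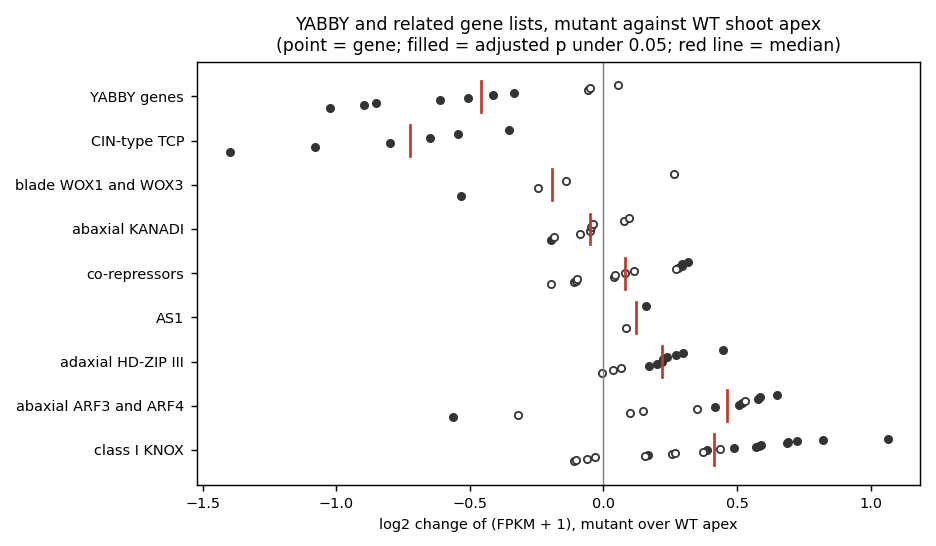
Each point is 1 tested gene of a list, placed by its log2 change of FPKM + 1 in the mutant over the wild-type apex. Filled points passed an adjusted p under 0.05, and red lines mark medians, which are -0.46 for the 10 YABBY genes, -0.73 for CIN-type TCP genes and 0.41 for class I KNOX genes.

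Between the wild-type apex and the leaflets, where 35.3% of all genes were higher and 44.3% lower, the 11 tested HD-ZIP III genes were all higher in the apex, as were the 4 WOX1 and WOX3 genes. Of the 8 KANADI genes 3 were higher and 4 lower, and of the 13 co-repressor genes 5 were higher and 3 lower. One LEUNIG gene (arahy.S31KRA.1) stood apart, at 7.03 ± 0.336 FPKM in the wild-type apex and 66.4 ± 2.48 FPKM over the 6 leaflet libraries. Between the petiole and the leaflets, where 30.8% of all genes were higher and 44.1% lower, 3 KANADI genes were higher and 4 lower of 8, and 9 genes of auxin response factors 3 and 4 were higher and 2 lower of 12. All 6 tested CIN-type TCP genes were lower in the petiole. The KAN4 gene arahy.7C467Q.1 averaged 8.33 ± 0.425 FPKM in the petiole and 0.753 ± 0.212 FPKM over the 6 leaflet libraries. Blade marker genes were also lower in the petiole in 30 of 32, and their part in the YABBY differences was not tested. Quantile normalization moved the median of all genes in this comparison to 0.03, and the median of the 10 YABBY genes was then -1.45.

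The 5 YABBY genes below the 10 were either a copy of a member that was low in FPKM or nearly silent. The gene just below, arahy.K25LU1.1 on chromosome 3, pairs by name with the YABBY 2 member arahy.R7E7C4.2. It held 9.96% of the pair's FPKM in the mutant apex, 9.95% in the wild-type apex, 9.68% in the petiole, 11.7% in the terminal leaflet and 11.98% in the lateral leaflet. These shares depend on transcript length, listed as 3708 bases for arahy.K25LU1.1 and 1394 bases for arahy.R7E7C4.2. In estimated fragments per library, arahy.K25LU1.1 had 88.8 to 325.2 and arahy.R7E7C4.2 had 320.0 to 866.1. The lowest member kept, arahy.20NM7L.1, had 49.2 to 174.7. The other 4 are named axial regulator YABBY 4 or a variant of it, whereas the 2 members are named protein YABBY 4, and whether the names mark the same clade was not tested. These 4 averaged 0.247 to 0.687 FPKM over all libraries. Each had its highest group mean in the petiole. None of the 10 members did, but members were kept by their mean over all libraries, so this contrast depends on that choice. For arahy.X90Z8E.1 and arahy.3P44EB.1 the petiole libraries overlapped those of the leaflets. Neither arahy.3P44EB.1 nor arahy.KKAN03.1 passed the filter for testing. All 4 rest on an estimated 48.3 fragments or fewer in every library. The gene arahy.H309J3.1 (chromosome 15, 24674008 to 24677914, plus strand) stood at 1.26 to 1.52 FPKM in the 3 petiole libraries and at most 0.31 FPKM in every other library. The gene arahy.KKAN03.1 (chromosome 5, 32961732 to 32965099, minus strand) stood at 0.92, 0.99 and 1.35 FPKM in the petiole and was listed at 0 in all 6 leaflet libraries. Of the carpel gene CRABS CLAW, the copy arahy.32YMTN.1 was listed at 0 in all 3 mutant apex libraries and averaged 0.313 ± 0.0551 FPKM in the wild-type apex. It reached at most 0.35 FPKM in any library, below the filter, so this difference was not tested.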

How the data were processed

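The authors deposited FPKM values per gene, per the file headers, for 15 libraries, each column present 2 times with identical values and read once, together with product names, gene positions and the longest transcript length. Neither the aligner nor the quantification tool is given in the sources used here. TAIR10, a build of Arabidopsis, is named in the submitters' processing notes, whereas gene identifiers follow peanut Tifrunner, first assembly. Library columns were matched to groups by title or, for leaflets, by tissue.

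Values were transformed as log2(FPKM + 1), so changes of low genes are understated. A gene had to reach 1 FPKM in 3 or more libraries. All 15 libraries entered a model with a mean for each group, fitted in R 4.3.3 with limma 3.58.1 using trended, robust variances, with Benjamini-Hochberg adjustment over all tested genes. The fit was tested on simulated data. Levels, sums and exact permutation tests were computed in Python 3.11.15 with SciPy 1.17.1 and pandas 2.3.3, and figures with matplotlib 3.10.9. Depth was estimated from the steps of low FPKM values in transcripts of 250 to 500 bases.

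The YABBY genes and the gene lists, which are patterns on product names, were chosen with earlier results of these data known. The table holds 1559 entries at the position of an earlier entry, 1501 of them with identical values in all libraries. These were counted once in the lists and in the search for similar genes and remained in the fit. All members were named, with the highest gene and the gene of smallest p of each list as candidates. A list of AS1 genes, whose Arabidopsis counterpart represses KNOX genes in leaves, and the summing of homeologous copies were added after the data were seen. Of the 2 AS1 genes, 1 was higher in the mutant apex than in the wild-type apex, where 23.7% of all genes were higher. Library numbers shared between groups did not pair samples, with correlations of deviations from -0.06 to 0.05. Alternatives were another pseudocount, no filter, quantile normalization, TPM scaling, a replicate block, and leaving out each library in turn.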

Additional observations from a re-analysis of the deposited data

How the results depend on the processing

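Each of the 10 genes in each of the 5 comparisons gave 50 values. None changed its call or direction without the filter on low values, with entries of repeated positions left out (38010 genes tested; chosen after seeing the data), or with the replicate block, under which 7 YABBY genes and 13529 genes in all were called between the mutant and wild-type apex. In that comparison 7 YABBY genes were called without each library in turn. The number called between terminal and lateral leaflet was 1 and ranged from 0 to 2 without 1 library. A pseudocount of 0.1 ended 2 calls. After quantile normalization 9 YABBY genes were higher in the wild-type apex than in the petiole, and after TPM scaling 10. Of all 39031 genes tested, 10736 were higher there without rescaling, 9835 after quantile normalization and 12272 after TPM scaling. Of all genes called in the mutant apex, 66.6% were higher, and 53.0% after quantile normalization.

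Direction turned only for changes that were not called with each copy alone and all libraries in the fit. Terminal over lateral, these were 0.0094 for arahy.FNKT0B.1 after quantile normalization and -0.0101 for arahy.IPJH2T.1 after TPM scaling. Leaving out 1 library gave ranges of -0.0722 to 0.1267 for arahy.IPJH2T.1, -0.0358 to 0.1291 for arahy.69GKHF.1 and -0.0756 to 0.0138 for arahy.FNKT0B.1. For the mutant over the wild-type apex it gave -0.0028 to 0.0986 for arahy.IPJH2T.1 and -0.2099 to 0.1097 for arahy.20NM7L.1. With copies summed, arahy.IPJH2T.1 and its partner gave -0.0183 for the mutant and -0.2253 for the terminal leaflet (limma adjusted p = 0.00693), arahy.W7IKXG.1 and its partner 0.0035 for the terminal leaflet and -0.0071 for the petiole, and arahy.69GKHF.1 and its partner -0.0029 for the terminal leaflet.

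The homeolog difference between apices and leaflets was 0.11 for YABBY 1 on FPKM + 1 (exact permutation, adjusted p = 0.141), 0.12 with the wild-type apex alone, and 0.45 for YABBY 2 with the wild-type apex alone. With 3 against 6 libraries the smallest exact permutation p is 0.0238. The YABBY 1 pair reached that floor, so its adjusted p above the threshold says little about stability. With the wild-type apex alone the YABBY 2 pair gave an exact permutation p of 0.167, above the floor. For YABBY 4 the difference was -0.44 on FPKM + 1, which passed (exact permutation, adjusted p = 0.0476). With the wild-type apex alone it was -0.41 and did not pass (exact permutation, p = 0.190, adjusted p = 0.254). The causes were not tested. Members below 1 FPKM rest on few fragments, as the YABBY 1 genes do in the petiole, at an estimated 0 to 10.9 per library. The lowest member, arahy.20NM7L.1, at 1.96 to 7.27 FPKM, rests on an estimated 49.2 to 174.7.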
